A study of Homo sapiens with 24 samples.

Results

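The genes described are 9 targets of YAP and the TEAD factors: CCN1, CCN2, ANKRD1, AMOTL2, AXL, AJUBA, LATS2, TEAD1 and F3. They were taken by symbol, from the Ensembl identifier of each row, out of 60675 gene identifiers measured in each of 24 libraries. All 9 were among the 20668 genes that passed the filter on low counts. YAP and its paralog TAZ are coactivators without a DNA-binding domain of their own, and they act on transcription through the TEAD proteins, which bind DNA. In the Hippo pathway, the MST and LATS kinases phosphorylate YAP and TAZ and keep them out of the nucleus, so that the targets fall when the pathway is active and rise when cells spread, lose contact or come under tension. In intestinal epithelium YAP is known for its part in regeneration after injury and in colorectal tumours.

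The study compared bulk mRNA, selected by its poly(A) tail, of HCT116 cells, an established line from a human colorectal carcinoma, in 3 forms that the labels call p53 wild type (WT), mutant (Mutant) and null (Null). Each form received solvent, APR-246 at 20 uM, irradiation with 6 Gy, or APR-246 before irradiation (the combination). Irradiated cells were harvested 72 hours later, and the labels give no separate time for the groups without irradiation. APR-246 is a compound developed to restore activity to mutant p53 that also depletes glutathione. Every group had 2 libraries, called library 1 and library 2 by the numbers in the labels.

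Each p53 status was represented by 1 form of HCT116, so that p53 status and any other difference between the forms cannot be told apart. All 3 forms share the HCT116 background. The labels do not say whether the 2 libraries of a group came from separate cultures, and p-values therefore measure only the spread between these libraries. The treatments of a form were all compared with the same 2 solvent libraries.

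The libraries held 53184139 to 58058729 reads. CDKN1A, a p53 target, was at 508 to 2253 CPM in the 8 WT libraries, 88.7 to 240.4 CPM in the Mutant libraries and 140.3 to 357 CPM in the Null libraries, with WT above both. Of 8 markers of colon epithelium, 5 (EPCAM, CDH1, KRT8, KRT18 and CDX2) had a mean of at least 1 CPM, and KRT20, VIL1 and CDH17 did not. The same level was reached by 1 of 8 fibroblast markers (COL1A1), 0 of 6 blood cell markers and 1 of 4 endothelial markers (VWF), and the fibroblast list summed to 13.3 to 60.2 CPM in WT, 11.8 to 45.8 CPM in Mutant and 18.4 to 69.2 CPM in Null libraries. Library 1 and library 2 of a group differed in how levels depended on the GC content of a gene. The slope of the log2 values on GC percent is given in log2 units per 10 percentage points. It ran from -0.65 to 0.14 in library 1 and from -0.21 to 0.60 in library 2. A second model with this slope as a covariate is therefore quoted for the 9 genes where it changed a call. Each irradiated library also had a higher slope than the solvent library of its form and number. For library 1 the slope went from -0.53 to -0.14 (WT), -0.65 to 0.13 (Mutant) and -0.25 to -0.08 (Null). For library 2 it went from 0.26 to 0.41, 0.23 to 0.30 and 0.34 to 0.39, forms as before. The slope is computed from the same expression values, so slope and irradiation are partly confounded in the second model.

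TEAD factors are known to bind the sequence GGAATG, which reads CATTCC on the opposite strand. RefSeq promoter windows (GRCh38.p14) of 250 bases before and 50 bases after an annotated start were found for 7 of the 9 genes, as 10 windows, with no entry for CCN1 and TEAD1. The motif, searched on both strands, was in 6 of these 10 windows, belonging to 6 genes, against 14.03% of all 35116 windows of that length. The 4 upstream stretches below are written 5′ to 3′ on the strand of the gene, with any motif in capitals. They are those of the member that rose most often, of 1 that was almost silent, of the most abundant regulator and of the member that fell. AMOTL2 and AXL each had 2 windows, 1 of them with a match. The AMOTL2 stretch printed is the one with the match, and the AXL stretch printed is the one without.
CCN2: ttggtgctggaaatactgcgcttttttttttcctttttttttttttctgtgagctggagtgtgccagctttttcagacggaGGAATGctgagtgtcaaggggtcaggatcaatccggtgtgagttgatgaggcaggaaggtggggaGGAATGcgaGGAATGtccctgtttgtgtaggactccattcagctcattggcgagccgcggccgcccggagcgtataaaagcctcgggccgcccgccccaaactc
ANKRD1: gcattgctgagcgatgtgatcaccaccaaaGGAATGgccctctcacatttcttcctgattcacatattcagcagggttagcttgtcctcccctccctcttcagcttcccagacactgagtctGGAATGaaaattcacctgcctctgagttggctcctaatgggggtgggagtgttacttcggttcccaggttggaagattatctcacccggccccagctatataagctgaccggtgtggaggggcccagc
AMOTL2: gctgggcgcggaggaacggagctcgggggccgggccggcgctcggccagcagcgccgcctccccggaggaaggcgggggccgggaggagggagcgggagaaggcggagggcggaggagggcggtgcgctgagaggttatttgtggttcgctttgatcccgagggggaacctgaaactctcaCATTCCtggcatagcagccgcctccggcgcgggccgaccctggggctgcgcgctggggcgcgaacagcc
AXL: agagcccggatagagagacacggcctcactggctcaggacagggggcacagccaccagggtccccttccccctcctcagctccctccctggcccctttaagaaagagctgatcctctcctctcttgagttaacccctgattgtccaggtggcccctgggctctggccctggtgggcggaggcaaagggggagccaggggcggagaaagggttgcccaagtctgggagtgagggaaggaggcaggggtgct
The CCN2 stretch (chr6:131951373-131951622, minus strand) held 3 matches, beginning 169, 104 and 95 bases before the start, and 0.128% of all windows held 3 or more. The ANKRD1 stretch (chr10:90921088-90921337, minus strand) held 2 matches, beginning 220 and 128 bases before the start, and 1.37% of windows held 2 or more. The second AMOTL2 start (chr3:134374448-134374697, minus strand) had 1 match on the opposite strand, beginning 69 bases before it, and the first AMOTL2 start had none. The first AXL start (chr19:41218973-41219222, plus strand) had none, and the other AXL start had 1, beginning 212 bases before it. Single matches were also found for AJUBA (59 bases before its second start) and LATS2 (within the first bases after its start, at position 10), and none for F3. A match is a description of letters, and the data hold no measurement of TEAD binding.

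Levels are given below as scaled CPM, the deposited CPM (reads of a gene relative to all reads of the library) divided by a TMM normalisation factor of each library, which ran from 0.741 to 1.28. Per kilobase of the longest annotated transcript, the mean deposited level over 24 libraries was 31.3 CPM for AXL, 28.7 for AMOTL2, 24.6 for CCN1, 22.5 for F3 and 17.4 for AJUBA. LATS2 at 5.68, TEAD1 at 5.18 and CCN2 at 4.66 CPM per kilobase were lower, and ANKRD1 was at 0.0689. The ranges over libraries of neighbours in this order overlapped, except those of ANKRD1 and CCN2. Single libraries spanned 1.83 to 30.3 deposited CPM for CCN2 and 5.73 to 249 CPM for F3, the highest ratios of highest to lowest library among the 8 genes other than ANKRD1. ANKRD1 (chr10:90912096-90921276, minus strand), an ankyrin repeat protein of the nucleus and sarcomere, had 0 to 23 reads per library, and 9 of 24 libraries held 3 reads or fewer, the floor used here for counting error, 0.0517 to 0.0564 deposited CPM.

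**Figure D1:**
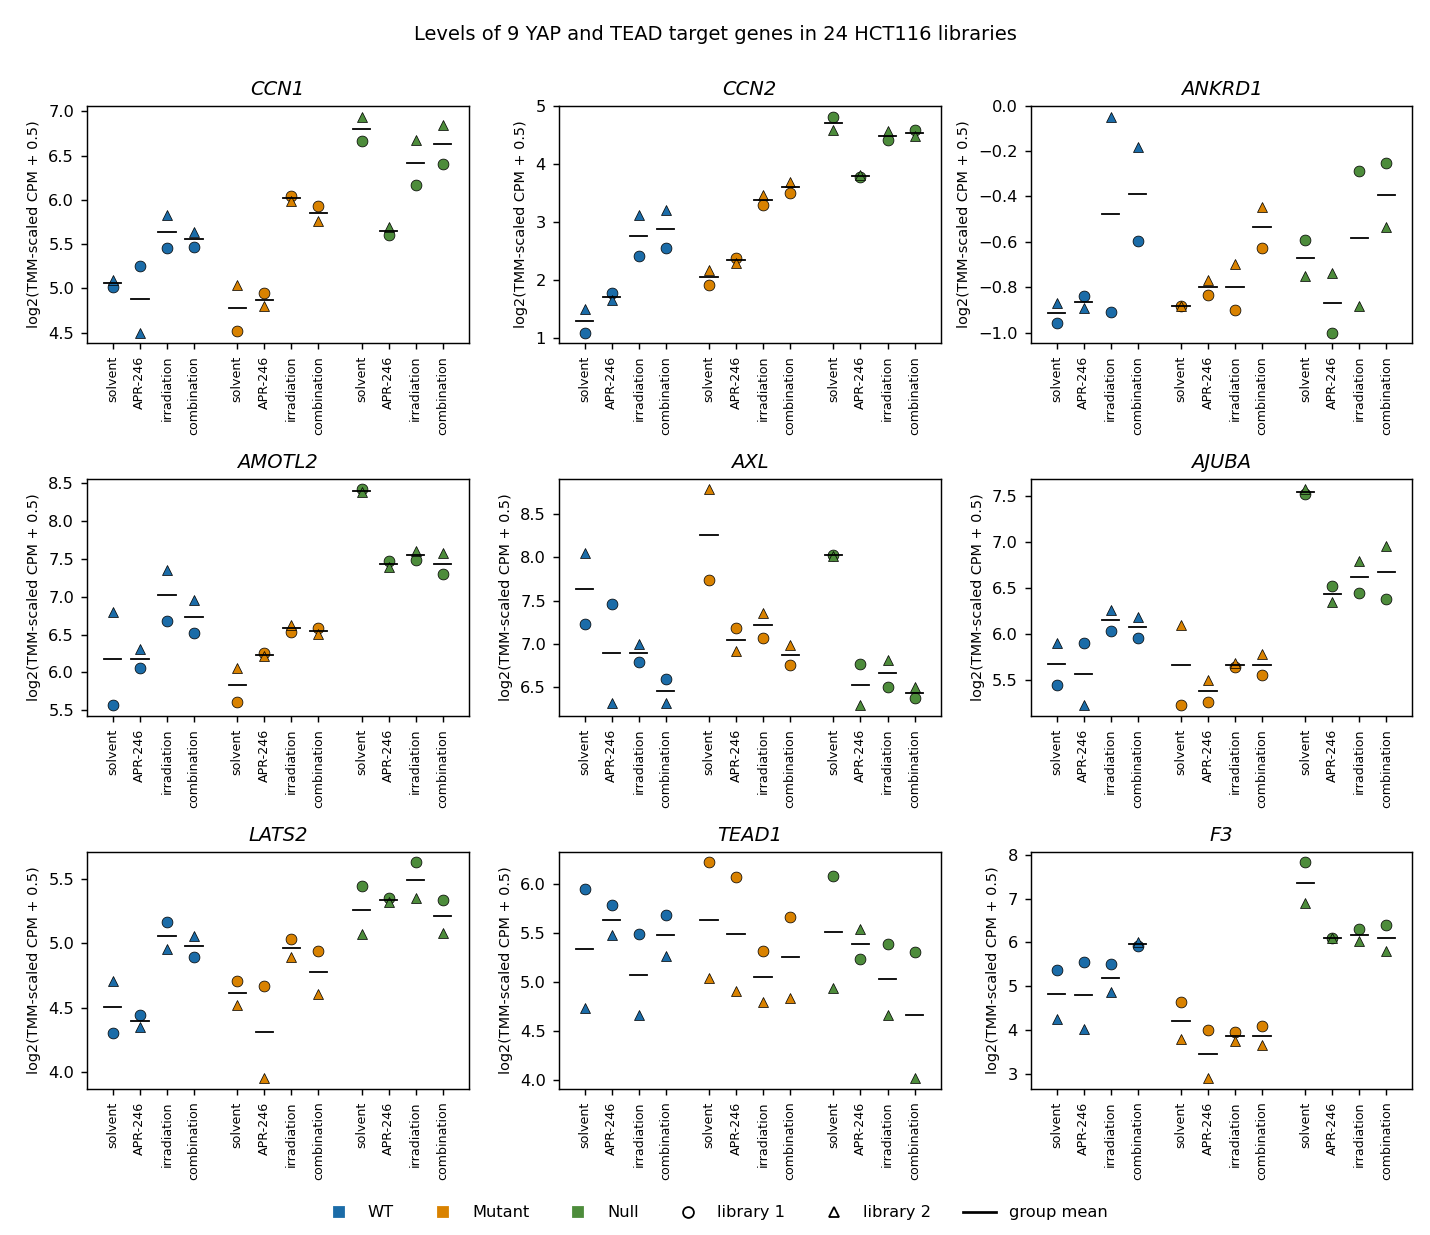
Levels of the 9 genes as log2(TMM-scaled CPM + 0.5) on the vertical axes, in each of the 24 libraries (circles for library 1, triangles for library 2) with the group mean as a bar, by form of HCT116 (colour) and treatment. The green Null solvent points of CCN1, CCN2, AMOTL2, AJUBA and F3 stand above all WT and Mutant solvent points, and the group mean of AXL is highest in solvent in all 3 forms.

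Null cells had the highest levels of most of these genes. Averaged over the 4 treatments, CCN1, CCN2, AMOTL2, AJUBA, LATS2 and F3 were lower in WT than in Null, and the same 6 were lower in Mutant than in Null. That is 6 of 9 genes in each comparison and none higher, where limma called 11.8% of all tested genes for WT against Null (5.74% lower) and 12% for Mutant against Null (6.11% lower). Calls are at an adjusted p (Benjamini-Hochberg, all 20668 genes) under 0.05. The median log2 difference of the 9 genes was -0.95 for WT and -0.998 for Mutant, beside 0.02 and 0.01 over all genes. In bulk RNA, fewer cells with a transcript and less of it per cell cannot be told apart.

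CCN2, also known as CTGF (chr6:131948176-131951373, minus strand, GRCh38, GENCODE 29), is a secreted matricellular protein that promotes matrix deposition. In solvent its scaled CPM was 1.64 and 2.35 in WT, 3.29 and 4.01 in Mutant, with Null at 27.7 and 23.6. Across the 8 libraries of a form it ranged over 1.64 to 8.72 (median 3.88) in WT, 3.29 to 12.5 (median 7.02) in Mutant and 13.2 to 27.7 (median 22.5) in Null. Every Null library thus stood above every WT and Mutant library, and the gap was widest in solvent. Averaged over treatments the log2 difference was -2.21 ± 0.14 for WT minus Null (adjusted p = 1.75e-08, limma) and -1.54 ± 0.14 for Mutant minus Null (adjusted p = 1.1e-06). In the solvent groups alone it was -3.40 ± 0.27 (adjusted p = 2.92e-06, limma) and -2.66 ± 0.27 (adjusted p = 3.08e-05), both over 1.5 times the averaged values.

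CCN1, or CYR61 (chr1:85580761-85583962, plus strand), is the sister matricellular protein, which binds integrins. Its solvent levels were 31.96 and 33.7 scaled CPM in WT, 22.4 and 32.3 in Mutant, with Null at 101 and 122, again with Null apart from both. Over all treatments CCN1 ranged over 22.2 to 56.3 (median 40.5) in WT, 22.4 to 65.6 (median 43.1) in Mutant and 48.3 to 122 (median 92.6) in Null, so that the lowest Null libraries, those with APR-246, lay within the range of the others. The averaged log2 difference was -1.09 ± 0.14 for WT minus Null (adjusted p = 6.82e-05, limma) and -0.998 ± 0.14 for Mutant minus Null (adjusted p = 0.000136). Within each of the 4 treatments both libraries of WT, and both of Mutant, were below both of Null.

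The regulators that feed back on the pathway were also highest in Null. AMOTL2 (chr3:134355874-134375479, minus strand), an angiomotin-like scaffold that holds YAP in the cytoplasm, stood at 46.8 and 111 scaled CPM in WT solvent, 48.1 and 66.4 in Mutant solvent and 341 and 332 in Null solvent. AJUBA (chr14:22971174-22982642, minus strand), a LIM protein that restrains the LATS kinases, stood at 43.1 and 59.1, 36.9 and 67.8 and 183 and 190.1 in the same order. For both genes the Null libraries were above all others in solvent, and they stayed above WT and Mutant within every treatment. The averaged log2 differences were -1.18 ± 0.17 and -1.41 ± 0.17 for AMOTL2 (adjusted p = 0.000216 and 3.27e-05, limma, WT and Mutant against Null). For AJUBA they were -0.95 ± 0.16 and -1.23 ± 0.16 (adjusted p = 0.00066 and 4.81e-05, limma).

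LATS2 (chr13:20973032-21061547, minus strand), the kinase that phosphorylates YAP and is itself a YAP target, differed less. In solvent it stood at 19.2 and 25.7 scaled CPM in WT, 25.7 and 22.5 in Mutant, with Null at 43.04 and 33.1. Both WT and both Mutant libraries were below both Null libraries in each treatment, with averaged log2 differences of -0.59 ± 0.13 (adjusted p = 0.00627, limma) and -0.66 ± 0.13 (adjusted p = 0.00248). In solvent alone LATS2 was not called (adjusted p = 0.32 and 0.305, limma), nor without TMM scaling, where the averaged values were -0.49 and -0.60.

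F3 (chr1:94529225-94541800, minus strand), tissue factor, the cell-surface receptor that starts blood coagulation, had the largest averaged difference of the 9 genes, that of Mutant against Null. In solvent it stood at 40.8 and 18.6 scaled CPM in WT, 24.4 and 13.3 in Mutant, with Null at 227 and 118, with library 2 the lower in each pair. Null was above both other forms in solvent, and Mutant had the lowest group mean in every treatment. The averaged log2 difference was -1.25 ± 0.26 for WT minus Null (adjusted p = 0.00407, limma), which was not called without TMM scaling (-1.15). For Mutant minus Null it was -2.59 ± 0.26 (adjusted p = 3.64e-06, limma). In the combination groups the WT libraries (59.98 and 63.5) fell inside the range of the Null libraries (83.4 and 55.7).

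The remaining 3 genes were not called between Null and the other forms. AXL (chr19:41219203-41261766, plus strand), a receptor tyrosine kinase bound by the ligand GAS6, had log2 differences of 0.06 ± 0.20 for WT minus Null (95% interval -0.36 to 0.48) and 0.44 ± 0.20 for Mutant minus Null (95% interval 0.02 to 0.86). TEAD1 (chr11:12674591-12944483, plus strand), the DNA-binding partner of YAP, gave 0.23 ± 0.29 (95% interval -0.38 to 0.85) and 0.21 ± 0.29 (95% interval -0.41 to 0.82). ANKRD1 gave -0.03 ± 0.12 and -0.13 ± 0.12 on a scale that understates differences at its level. In the model with the GC slope, where 18.3% of all genes were called higher, AXL was called higher in Mutant than in Null (0.48 ± 0.18, adjusted p = 0.0488, limma), a call that held in 2 of 16 fits with a library left out.

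Mutant and WT differed for 2 of 9 genes, 1 in each direction, where 9.65% of all genes were called (4.59% higher, 5.07% lower). CCN2 was higher in Mutant by 0.68 ± 0.14 (adjusted p = 0.00408, limma), with both Mutant libraries above both WT libraries in each treatment. F3 was lower in Mutant by a log2 difference of -1.34 ± 0.26 (adjusted p = 0.00274, limma), and its libraries did not overlap in 3 of 4 treatments. In the model with the GC slope, where 16.0% of all genes were called lower, AMOTL2 (-0.31 ± 0.10, adjusted p = 0.0223, limma) and AJUBA (-0.34 ± 0.10, adjusted p = 0.00768) were called lower in Mutant as well, in 11 and 15 of 16 fits with a library left out. In the solvent groups alone none of the 9 genes was called between Mutant and WT.

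**Figure D2:**
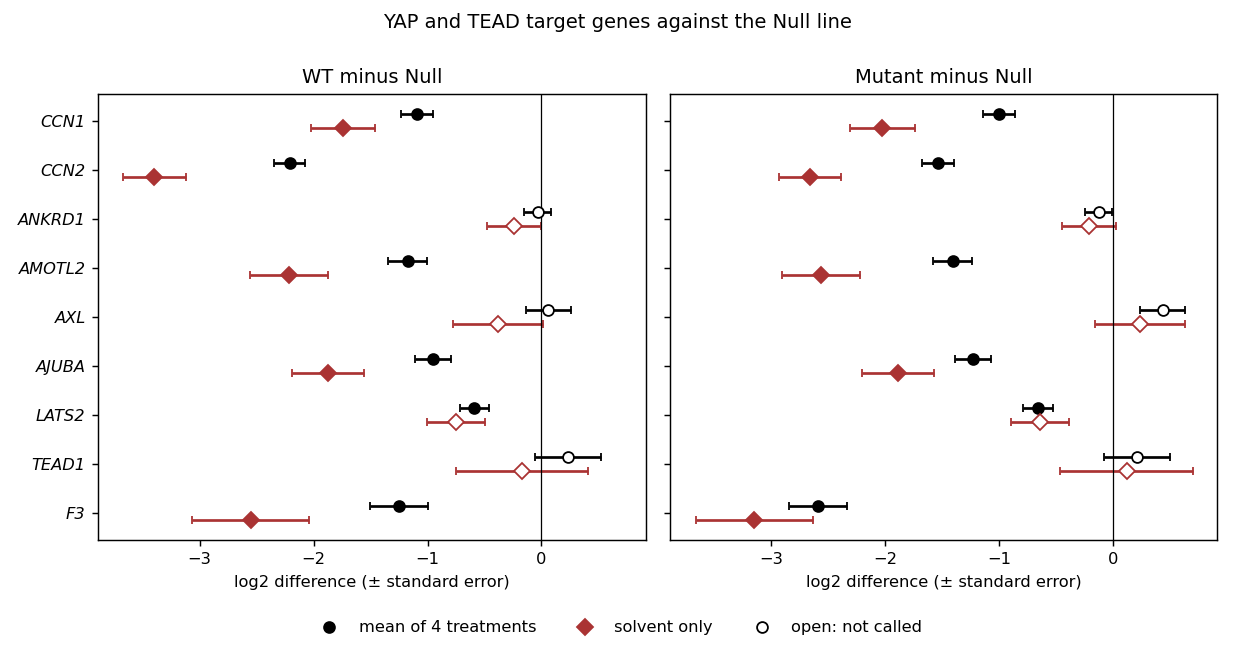
Log2 differences from Null (horizontal axes, with standard errors) of WT and Mutant for the 9 genes, averaged over the 4 treatments (circles) and in solvent alone (diamonds), with filled symbols for genes called by limma. CCN1, CCN2, AMOTL2, AJUBA and F3 are called on both measures and lie further from 0 in solvent alone, while LATS2 is called only on the average.

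Irradiation raised CCN2 and lowered AXL. Averaged over the 3 forms, 1 of 9 genes rose and 1 fell, where 13% of all genes were called (6.84% higher, 6.13% lower). CCN2 rose by 0.86 ± 0.16 on the log2 scale, 1.81-fold (adjusted p = 0.00246, limma). AXL differed by -1.05 ± 0.23, 0.484 times its solvent level (adjusted p = 0.00733). Both calls held in 12 of 12 fits with a library left out. The median of the 9 genes was 0.20, beside -0.01 over all genes.

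CCN2 stood above solvent in WT and Mutant and not in Null. In WT it went from 1.64 and 2.35 scaled CPM in solvent to 4.83 and 8.21 after irradiation. In Mutant it went from 3.29 and 4.01 to 9.30 and 10.5, and in Null from 27.7 and 23.6 to 20.9 and 23.1. The irradiated libraries were above the solvent libraries in WT and Mutant, and below them in Null. In WT the log2 difference was 1.46 ± 0.27 (adjusted p = 0.0151, limma), the single call among the 9 genes there, where 1.56% of all genes were called. Leaving out either WT solvent library or library 2 of irradiated WT ended this call (1.11 to 1.81 over 4 such fits, highest adjusted p = 0.18, limma), as did a fit to WT libraries only. In Mutant, where 0.0774% of all genes were called, CCN2 had 1.33 ± 0.27 (adjusted p = 0.0617, limma) and was called with the GC slope (1.22 ± 0.22, adjusted p = 0.00109, where 5.71% of all genes were called higher), also without any 1 of the 4 libraries. In Null the value was -0.22 ± 0.27 (95% interval -0.80 to 0.36).

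CCN1 had a similar order of values. WT went from 31.96 and 33.7 to 43.4 and 56.3 scaled CPM, Mutant from 22.4 and 32.3 to 65.6 and 62.8, and Null from 101 and 122 to 71.3 and 102. The irradiated libraries were above solvent in WT and Mutant, and in Null the 2 groups overlapped. Averaged over forms the log2 difference was 0.48 ± 0.16 (adjusted p = 0.0643, limma). With the GC slope, where 18.8% of all genes were called higher, CCN1 was called (0.41 ± 0.12, adjusted p = 0.0133, limma), except without WT solvent library 2. In Mutant alone it was 1.24 ± 0.28 (adjusted p = 0.0757, limma) and was called with the GC slope (1.12 ± 0.21, adjusted p = 0.00208), also without any 1 of the 4 libraries.

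AXL was lower after irradiation in every form. Its scaled CPM went from 149 and 264 to 110.2 and 127 in WT, from 212 and 439.7 to 134 and 164 in Mutant and from 260.2 and 258 to 90.4 and 112 in Null. The 2 groups did not overlap in any form. The separate log2 differences were -0.74 ± 0.40, -1.04 ± 0.40 and -1.36 ± 0.40, and none of these was called by limma on its own. Adding the GC slope, the Mutant and Null values were called (adjusted p = 0.0435 and 0.0129, limma, with 7.78% of all genes called lower in Mutant), in 1 of 4 and 0 of 4 fits with a library left out.

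Among the feedback regulators, none was called after irradiation by the main test in any form. LATS2 had 0.38 ± 0.15 averaged over forms (adjusted p = 0.106, limma), and rose with the GC slope (0.46 ± 0.11, adjusted p = 0.00206), also without any 1 of the 12 libraries. Its scaled CPM went from 19.2 and 25.7 to 35.4 and 30.5 in WT and from 25.7 and 22.5 to 32.3 and 29.3 in Mutant, without overlap, and from 43.04 and 33.1 to 49.1 and 40.3 in Null, with overlap. AMOTL2 went from 341 and 332 to 179 and 195 scaled CPM in Null and AJUBA from 183 and 190.1 to 86.5 and 111, both without overlap. Their values in Null were -0.85 ± 0.34 and -0.93 ± 0.31 (adjusted p = 0.316 and 0.192, limma), where 0.677% of all genes were called. Both were called lower in Null with the GC slope, where 10.9% of all genes were (-0.91 ± 0.20, adjusted p = 0.00291, and -0.98 ± 0.19, adjusted p = 0.000989, limma), AMOTL2 not without Null solvent library 1 and AJUBA without any 1 of the 4 libraries. In WT the values were 0.83 ± 0.34 for AMOTL2 and 0.48 ± 0.31 for AJUBA. With the GC slope, where 9.07% of all genes were called higher, AMOTL2 (0.67 ± 0.20) and LATS2 (0.63 ± 0.18) were called higher there, in 2 and 1 of 4 fits with a library left out. Averaged over forms the slope also brought a call of AJUBA as lower (-0.29 ± 0.11, adjusted p = 0.0498, limma, with 18.5% of all genes called lower), in 2 of 12 such fits.

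F3 in Null went from 227 and 118 to 78.9 and 64.7 scaled CPM, without overlap, a log2 difference of -1.19 ± 0.51 (adjusted p = 0.357, limma). In WT it had 0.37 ± 0.51 and in Mutant -0.36 ± 0.51. TEAD1 had -0.44 ± 0.33 averaged over forms (95% interval -1.15 to 0.27). F3 with the GC slope was called lower in Null (-1.06 ± 0.24, adjusted p = 0.00422, limma) and higher in WT (0.72 ± 0.24, adjusted p = 0.0456). These calls held in 2 of 4 and 0 of 4 fits with a library left out.

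APR-246 alone lowered AXL. Averaged over forms, 1 of 9 genes was called, where 3.15% of all genes were called (1.96% lower). AXL stood at 176 and 79.2 scaled CPM with APR-246 in WT, 145 and 120.2 in Mutant, with Null at 108 and 77.8. In Mutant and Null these were below the solvent libraries, whereas WT library 1 with APR-246 lay between the WT solvent libraries. The log2 difference was -1.15 ± 0.23 (adjusted p = 0.0133, limma). It ran from -1.34 to -0.96 with a library left out, and the call was lost without library 2 of the APR-246 group of WT, Mutant or Null (highest adjusted p = 0.0654), but was kept with the GC slope in 12 of 12 such fits.

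In Null cells 8 of 9 genes had a lower mean with APR-246 than with solvent. The share of all genes with a lower mean was not counted, so this count has no background beside it. The median log2 difference of the 9 genes was -0.96, beside -0.001 over all genes. CCN1 went from 101 and 122 to 48.3 and 51.3 scaled CPM. CCN2 went from 27.7 and 23.6 to 13.2 and 13.5, AMOTL2 from 341 and 332 to 178 and 167, AJUBA from 183 and 190.1 to 91.3 and 81.03 and F3 from 227 and 118 to 68.3 and 68.4. For these 5 genes and AXL the fitted ratio to solvent lay between 0.356 (AXL) and 0.53 (CCN2). The main test called 0 of the 9 genes, and 0.131% of all genes. Of the 9 genes, 6 had an unadjusted p under 0.05, as did 1797 of all genes. Limma with the GC slope called all 6, where 8.22% of all genes were called lower. The log2 differences were -1.15 ± 0.20 for CCN1 (adjusted p = 0.00118, limma with the GC slope), -0.91 ± 0.21 for CCN2, -0.96 ± 0.20 for AMOTL2, -1.49 ± 0.35 for AXL, -1.10 ± 0.19 for AJUBA and -1.27 ± 0.24 for F3. CCN1, AJUBA and F3 were called in 4 of 4 fits with a library left out, CCN2 and AMOTL2 in all but that without Null solvent library 1, and AXL in 1 of 4.

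In WT and Mutant the main test called none of the 9 genes after APR-246, and 0% of all genes (557 and 1516 of all genes, 0 and 1 of the 9, at an unadjusted p under 0.05). CCN2 had 0.41 ± 0.27 in WT (95% interval -0.17 to 0.99) and 0.30 ± 0.27 in Mutant (95% interval -0.28 to 0.88), with CCN1 at -0.18 ± 0.28 and 0.10 ± 0.28. Averaged over the 3 forms, the GC slope, with which 13.9% of all genes were called lower, added CCN1 (-0.43 ± 0.12), AJUBA (-0.53 ± 0.11) and F3 (-0.61 ± 0.14) to AXL as lower (adjusted p = 0.00907, 0.000885 and 0.00258, limma). CCN1 was not called without Mutant solvent library 2. In Mutant the slope brought a call of AXL as lower (-1.30 ± 0.35, adjusted p = 0.0444, limma, with 3.43% of all genes called lower), in 1 of 4 fits with a library left out.

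The combination moved the same 2 genes as irradiation. CCN2 rose and AXL fell averaged over forms, 2 of 9 genes, where 13.9% of all genes were called (7.63% higher, 6.29% lower). CCN2 stood at 5.37 and 8.72 scaled CPM in WT, 10.8 and 12.5 in Mutant, with Null at 23.5 and 21.9. The WT and Mutant libraries were above their solvent libraries, and the Null libraries were below theirs. The averaged log2 difference was 0.98 ± 0.16 (adjusted p = 0.000798, limma), 1.98-fold. In WT, where 2.23% of all genes were called, it was 1.57 ± 0.27 (adjusted p = 0.00662, limma). Leaving out library 1 of WT solvent or library 2 of the WT combination ended that call (1.24 to 1.90, highest adjusted p = 0.128, limma), as did a fit to WT libraries only. In Mutant, where 0.348% of all genes were called, it was 1.55 ± 0.27 (adjusted p = 0.0331, limma), a call that was lost without any 1 of the 4 libraries, from the Mutant libraries alone and with edgeR on the recovered reads. In the model with the slope, CCN2 was called in both forms without any 1 of their libraries, where 11.2% and 7.69% of all genes were called higher.

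AXL had its lowest group means with the combination, at 95.8 and 79.6 scaled CPM in WT, 108 and 126 in Mutant, with Null at 82.4 and 89.8. All were below the solvent and the irradiation libraries of their form, and library 2 with APR-246 was lower still in WT and Null. The averaged log2 difference was -1.38 ± 0.23 (adjusted p = 0.00105, limma), 0.383 times the solvent level. In Null, where 1.95% of all genes were called, it was -1.59 ± 0.40 (adjusted p = 0.0519, limma), and 0 of 9 genes were called. The GC slope, with which 13.7% of all genes were called lower in Null, added AMOTL2 (-1.07 ± 0.20), AXL (-1.66 ± 0.35), AJUBA (-0.97 ± 0.19), TEAD1 (-0.56 ± 0.14) and F3 (-1.03 ± 0.24) as lower. AMOTL2, AXL and AJUBA were called without any 1 of the 4 libraries. TEAD1 was not called without Null solvent library 1, nor F3 without Null combination library 1. CCN1 had 0.47 ± 0.16 averaged over forms (adjusted p = 0.0713, limma), and was called with the GC slope (0.45 ± 0.12, adjusted p = 0.00405, where 22.2% of all genes were called higher) without any 1 of the 12 libraries, and in the main test without TMM scaling (0.59).

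In WT and Mutant the GC slope brought further calls with the combination. In WT AMOTL2 (0.67 ± 0.20, adjusted p = 0.0193, limma) and F3 (0.89 ± 0.24, adjusted p = 0.0112) were called higher, each in 2 of 4 fits with a library left out. AXL was called lower there (-1.10 ± 0.35, adjusted p = 0.0404, limma, with 10.5% of all genes called lower), in 0 of 4. In Mutant CCN1 was called higher (1.01 ± 0.21, adjusted p = 0.00254, limma), except without Mutant combination library 1. AXL was called lower in Mutant (-1.48 ± 0.35, adjusted p = 0.0127, limma, with 8.81% of all genes called lower), in 1 of 4 fits.

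Within each form the group mean of ANKRD1 was highest with the combination. After irradiation alone the 2 libraries of a form disagreed. Library 1 held 2 reads for WT, 2 for Mutant but 22 for Null. Library 2 held 20, 6 and 2, listed by form as before. The lower irradiated library of every form was thus under the floor of 3 reads. ANKRD1 held 0.0149 and 0.0471 scaled CPM in WT solvent and 0.16 and 0.382 in WT with the combination. The same pairs were 0.0416 and 0.0427 and 0.147 and 0.234 in Mutant, and 0.164 and 0.0936 and 0.34 and 0.189 in Null. The combination libraries were above the solvent libraries in all 3 forms, the WT and Mutant solvent libraries lying at or under the floor of 3 reads. The averaged difference was 0.38 ± 0.14 on the log2(CPM + 0.5) scale (adjusted p = 0.0765, limma). It was called with the GC slope (adjusted p = 0.0203, limma), in 7 of 12 fits with a library left out, and by DESeq2 on the recovered reads (log2 2.14, adjusted p = 0.0278) but not by edgeR (2.09, adjusted p = 0.078). Both fitted folds rest on few reads.

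No gene of the 9 was called between combination and irradiation. Limma called 0 of 9 and 0% of all genes for their averaged difference, with 0 of 9 and 1240 of all genes at an unadjusted p under 0.05. On the recovered reads edgeR called 0 genes and DESeq2 14, none of them among the 9. The intervals were -0.21 to 0.46 for CCN2, -0.36 to 0.33 for CCN1 and -0.82 to 0.15 for AXL. The combination beyond the sum of both treatments was likewise not called for any of the 9, where 0.00484% of all genes were called. It was 0.81 ± 0.32 for AXL (95% interval 0.13 to 1.501, adjusted p = 0.345, limma). With the GC slope, where 15.4% of all genes were called, AXL (0.92 ± 0.29), AJUBA (0.63 ± 0.16) and F3 (0.60 ± 0.20) were called above 0 and TEAD1 below (-0.35 ± 0.12, against 0.07 ± 0.47 in the main test). With a library left out AJUBA held in 23 of 24 fits (lost without Mutant solvent library 2), and AXL, F3 and TEAD1 in 4, 6 and 7.

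The responses of the forms were also compared with each other. The irradiation response of WT minus that of Null was positive for all 9 genes, with a median of 0.96 beside 0.00 over all genes. No gene of the 9 was called by the main test, where limma called 0.0290% of all genes. The difference was 1.68 ± 0.39 for CCN2 (95% interval 0.86 to 2.499, adjusted p = 0.353, limma), 1.68 ± 0.49 for AMOTL2 and 1.40 ± 0.44 for AJUBA. For Mutant minus Null the values were 1.62 ± 0.40 for CCN1, 1.55 ± 0.39 for CCN2 and 1.59 ± 0.49 for AMOTL2, none of them called (0% of all genes). The APR-246 responses did not give a call either (0% of all genes), with CCN2 at 1.33 ± 0.39 for WT minus Null (95% interval 0.51 to 2.15) and 1.21 ± 0.39 for Mutant minus Null (95% interval 0.39 to 2.04). With the GC slope, where 1.11% of all genes were called, the WT minus Null irradiation difference was called for CCN2, AMOTL2, AJUBA and F3. These comparisons share the Null libraries.

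**Figure D3:**
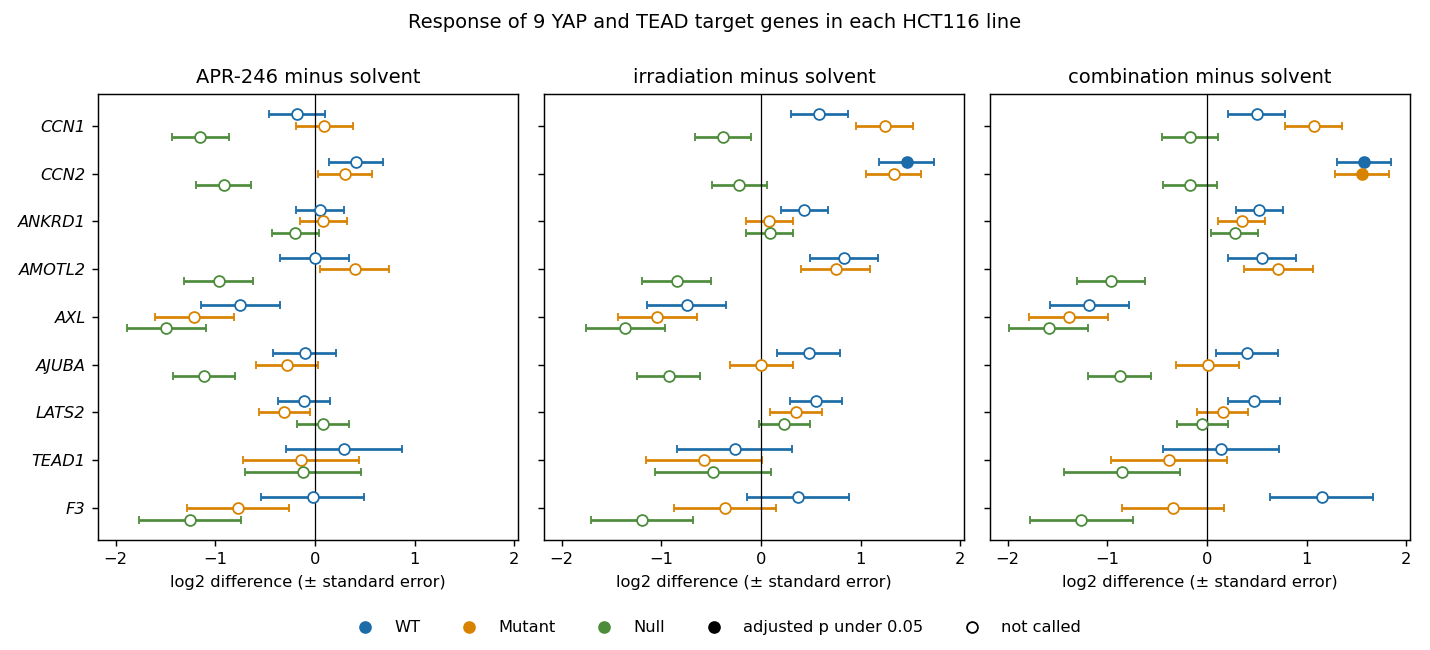
Log2 differences from solvent (horizontal axes, with standard errors) of the 9 genes in WT, Mutant and Null after APR-246, irradiation or the combination, with filled symbols for genes called by limma. The filled points are CCN2 in WT after irradiation, and in WT and Mutant after the combination, while AXL lies left of 0 in all 9 comparisons.

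TEAD1 and F3 had the largest standard errors of the 9 genes. Deposited TEAD1 was lower in library 2 than in library 1 in 11 of 12 groups, as was F3. CCN1 and LATS2 were so in 10 of 12 groups, AXL in 9 and ANKRD1 in 5, all before TMM scaling. Their transcripts have GC contents of 41.3% and 43.7%, and ANKRD1 has 43.2%, below the 50.3 to 56.7% of the other 6. In solvent TEAD1 stood at 61.03 and 26.02 scaled CPM in WT, 73.9 and 32.2 in Mutant, with Null at 67.2 and 30.04, so that the 2 libraries of each solvent group were further apart than any 2 of the 3 group means. Under the GC slope the standard error of an averaged treatment difference went from 0.33 to 0.087 for TEAD1 and from 0.30 to 0.14 for F3, against 0.16 to 0.12 for CCN1. In that model, where 21.7% of all genes were called lower, TEAD1 was lower with the combination (-0.26 ± 0.08, adjusted p = 0.0143, limma), in 9 of 12 fits with a library left out.

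**Figure D4:**
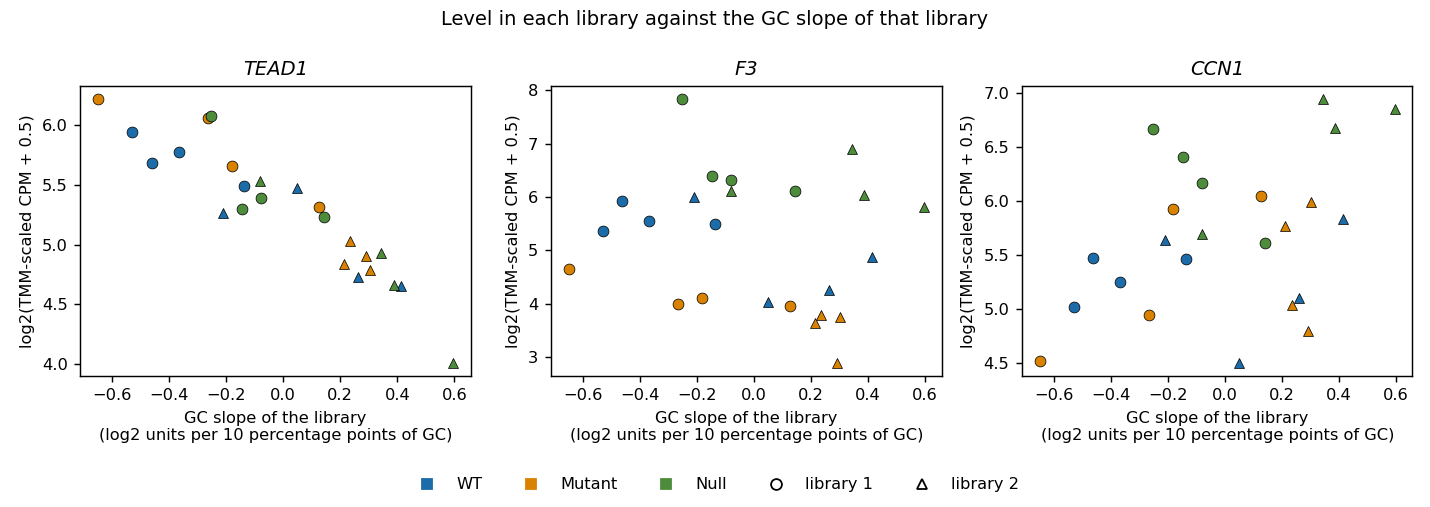
Level of TEAD1, F3 and CCN1 as log2(TMM-scaled CPM + 0.5) against the GC slope of each of the 24 libraries (log2 units per 10 percentage points of GC), with circles for library 1 and triangles for library 2. TEAD1 tends to be lower where the slope is higher, in all 3 forms, while F3 and CCN1 are also set apart by form.

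The genes that act above YAP were read from a list. Of 22 kinases and upstream regulators of the Hippo pathway, 2 rose after irradiation averaged over forms and 0 fell, with a median of 0.08 beside -0.01 over all genes, of which 13% were called in either direction. TAOK2, a kinase that activates MST, rose by 0.88 ± 0.19 (adjusted p = 0.00599, limma). NF2, the scaffold merlin that recruits LATS to the membrane, rose by 0.60 ± 0.16 (adjusted p = 0.0222), in 5 of 12 fits with a library left out. The combination raised TAOK2 alone (0.80 ± 0.19), and APR-246 none, where 13.9% and 3.15% of all genes were called. With the GC slope 8 were called higher and 1 lower after irradiation, where 18.8% of all genes were called higher and 18.5% lower. In that model the combination gave 8 higher and 4 lower, where 22.2% of all genes were called higher and 21.7% lower. Between forms, 3 of 22 were higher and 3 lower in WT than in Null, where 11.8% of all genes were called, among them AMOT, an angiomotin (1.14 ± 0.25, adjusted p = 0.00618, limma), which was also higher in Mutant than in Null (1.82 ± 0.25, adjusted p = 9.26e-05). FAT1 (0.93 ± 0.27), a protocadherin, and TAOK3 (0.84 ± 0.23) were the other 2 higher in WT, called in 5 and 8 of 16 fits with a library left out, and RASSF1 (-0.62 ± 0.15), a scaffold of the MST kinases, was among the 3 lower. In Mutant 3 were higher and 1 lower than in Null, where 12% of all genes were called.

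Of 8 genes for YAP, TAZ, other TEAD factors and cofactors, YAP1 itself was the single one called after irradiation. Of all genes, 13% were called there. YAP1 rose by 0.53 ± 0.16 (adjusted p = 0.0402, limma), in 2 of 12 fits with a library left out and not without TMM scaling. With the combination it rose by 0.70 ± 0.16 (adjusted p = 0.00923, limma), in 12 of 12 such fits but not without TMM scaling. YAP1 was higher in WT than in Null (0.61 ± 0.14, adjusted p = 0.00919, limma, not called without TMM scaling), opposite in sign to the 6 target genes called there. WWTR1, which encodes TAZ, had a mean of 80.7 deposited CPM in Mutant, 42.5 in WT and 37.2 in Null. It was higher in Mutant than in Null by 1.03 ± 0.14 (adjusted p = 6.44e-05, limma) and than in WT by 0.95 ± 0.14 (adjusted p = 0.000211). TEAD4 was lower in WT than in Null (-1.11 ± 0.33, adjusted p = 0.0374), in 6 of 16 fits with a library left out. In each of the 3 comparisons of forms 1 of the 8 was called higher and 1 lower. Of all genes, 11.8% were called in WT against Null, 12% in Mutant against Null and 9.65% in Mutant against WT. The other lower ones were VGLL4 in Mutant against Null (-0.32 ± 0.10, in 0 of 16 such fits) and VGLL1, which had a mean of 0.0611 CPM, in Mutant against WT.

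Further genes of a published YAP and TAZ target signature moved in both directions. Of 15, 13 were tested, and irradiation averaged over forms raised 2 and lowered 2. Of all genes, 6.84% were called higher and 6.13% lower. The median of the 13 was -0.11, beside -0.01 over all genes. CCDC80, a matrix protein, rose by 1.14 ± 0.12 (adjusted p = 0.000113, limma) and NUAK2, an AMPK-related kinase, by 0.71 ± 0.21 (adjusted p = 0.0355). GADD45A, a stress and p53 target, and NT5E, the ectonucleotidase CD73, were lower (-1.04 ± 0.28 and -1.10 ± 0.29, adjusted p = 0.023 and 0.0201). The CCDC80 call held in 12 of 12 fits with a library left out, and the calls of NUAK2, GADD45A and NT5E in 4, 6 and 6. NUAK2 was lower in WT and Mutant than in Null (-0.75 ± 0.18 and -0.77 ± 0.18, adjusted p = 0.0122 and 0.0101, limma), as was ARHGEF17 (-0.75 ± 0.14 and -0.53 ± 0.14, adjusted p = 0.0016 and 0.0174). In all, 1 of 13 was higher and 2 lower in WT than in Null, where 11.8% of all genes were called (5.74% lower). In Mutant 3 were higher and 2 lower than in Null, where 12% of all genes were called (6.11% lower). IGFBP3, a secreted binder of insulin-like growth factors, was the other way round, with a mean of 6.46 deposited CPM in WT, 8.53 in Mutant and 0.0452 in Null, the last under the floor.

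Across the 12 group means of the log2 values, CCN1, CCN2, AMOTL2, AJUBA, LATS2 and F3 varied together, with Pearson r from 0.61 to 0.96 between pairs. These 6 are the genes called lower in WT and in Mutant than in Null, in the same data. Their shared difference between forms is thus part of these r values, which are no separate evidence. The correlations describe 12 points that share forms and the depth and base composition of their libraries, and carry no test. CCN1 and CCN2 had an r of 0.93, CCN1 and AMOTL2 0.88 and AMOTL2 and AJUBA 0.96. AXL had r between -0.54 (ANKRD1) and 0.48 (TEAD1) with the other 8. Among tested genes with a mean of at least 1 CPM, those most like CCN1 were NUAK2 (r 0.94), RAET1L and DAGLB (both 0.94), and those most like CCN2 were LINC03061 (0.97), MFSD2A and CYTOR (both 0.96). AXL was nearest to SLC35F6 (0.98), ITGA3 (0.97), an integrin subunit, and CDCP1 (0.96). F3 was nearest to C1orf116 (0.98) and LATS2 to WNT7A (0.94).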

How the data were processed

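Bulk RNA libraries (24, from 12 groups of 2) were grouped by the labels alone. The deposited values are CPM. FastQC, STAR, Subread's featureCounts and the build GRCh38.p13 are listed per the submitters' processing notes. Versions, annotation release, strand setting and mate counting are not given in the sources used here. The smallest step of each library gave back whole reads for 100% of values within 0.05 of a read. Even counts made up 74.5 to 81.5% of values of 2 to 9 reads, so mates may have been counted singly. Symbols were found for 60419 of 60675 identifiers, and 58444 matched GENCODE 29, the source of transcript length and GC content (98.3% of tested genes).

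Genes were kept by filterByExpr (minimum count 10), and log2(TMM-scaled CPM + 0.5) was fitted with limma-trend (limma 3.58.1, edgeR 4.0.16, R 4.3.3), robust, with 12 group means and 12 residual degrees of freedom. Differences of low genes are understated on this scale. The 24 comparisons were each adjusted over 20668 genes. The second model adds the GC slope of each library, computed over genes of mean log2 at least 2 (11 residual degrees of freedom). Alternatives were no TMM scaling, other pseudocounts, no filter, a replicate block, single forms, solvent groups, each library left out, and edgeR and DESeq2 (1.42.0) on the recovered reads. The members, gene lists and alternatives were chosen with earlier results of these data known. All members are named, with called list genes (up to 4 by size per list and comparison) and up to 3 genes of like pattern per member. Some genes these rules name are not reported here. Intervals are 95% intervals of the limma model, and floors are 3 reads, for counting error only.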

Additional observations from a re-analysis of the deposited data

Results flagged for a closer look

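The irradiation response differed between WT and Null for 4 genes in a test of that difference with the GC slope in the limma model, and for none in the model without it. CCN2 differed by 1.63 ± 0.29 (adjusted p = 0.00453), with 1.64 and 2.35 scaled CPM in solvent and 4.83 and 8.21 after irradiation in WT. Null held 27.7 and 23.6 in solvent and 20.9 and 23.1 after irradiation. AMOTL2, the angiomotin-like scaffold, differed by 1.58 ± 0.28 (adjusted p = 0.00496), from 46.8 and 111 to 102 and 163 scaled CPM in WT, where the libraries overlapped, and from 341 and 332 to 179 and 195 in Null. AJUBA differed by 1.32 ± 0.27 (adjusted p = 0.012), from 43.1 and 59.1 to 65.1 and 76.3 in WT and from 183 and 190.1 to 86.5 and 111 in Null. F3 differed by 1.77 ± 0.33 (adjusted p = 0.00984), from 40.8 and 18.6 to 44.7 and 28.7 in WT, where the libraries overlapped, and from 227 and 118 to 78.9 and 64.7 in Null.

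Limma with the GC slope called 1.11% of all genes in this comparison. The slope itself was higher after irradiation in each form, so the covariate is not independent of the responses compared. With a library left out, CCN2 and AMOTL2 were called in 7 of 8 such fits, AJUBA in 4 and F3 in 5, and all 4 calls were lost without Null solvent library 1. In the model without the slope the differences were 1.68 ± 0.39, 1.68 ± 0.49, 1.40 ± 0.44 and 1.56 ± 0.73 (adjusted p = 0.353, 0.839, 1 and 1, limma), and DESeq2 on the recovered reads called CCN2 (1.94, adjusted p = 0.0159). Null solvent had the highest group mean of the study for all 4 genes.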

How the results depend on the processing

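The replicate numbers did not meet the condition for pairing, that deviations from the group means correlate above 0.1 in every pair of groups. The 55 pairs among 11 groups lay between 0.38 and 0.90, but Null with APR-246 lay between -0.56 and -0.14 against the other 11, and whether its numbers are crossed was not tested. The replicate block is therefore only an alternative. In limma without it, 6 of the 9 genes were called in WT and in Mutant against Null in 16 of 16 fits with a library left out. Where such a fit leaves a group with 1 library, that library is assumed to vary as the other groups do. LATS2 in both comparisons, and F3 in WT, were not called without TMM scaling. Mutant against WT went from 2 genes to 4 with the GC slope, 4 with block and slope and 0 in solvent alone. The cause of the changes below was not tested.

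With the replicate block the number of the 9 genes called went from 2 to 4 (irradiation, averaged), 1 to 3 (APR-246, averaged), 2 to 4 (combination, averaged), 0 to 2 (irradiation, Mutant), 0 to 3 (irradiation, Null), 0 to 5 (APR-246, Null), 1 to 3 (combination, WT and Mutant alike), 0 to 4 (combination, Null) and 0 to 1 (combination beyond the sum). With the GC slope these were 5, 4, 5, 3, 4, 6, 4 and 3, 5 and 4, and with block and slope 4, 4, 5, 3, 4, 6, 4 and 3, 5 and 3. Irradiation in WT gave 4 with the slope and 3 with both, against 1. APR-246 in Mutant gave 1 with either, and the WT minus Null irradiation response 4 with either, against 0. DESeq2 gave 4 for the averaged irradiation and for the averaged combination, 2 and 1 for irradiation in Mutant and Null, 4 for APR-246 in Null, 2, 3 and 1 for the combination in WT, Mutant and Null, and 1 for the response difference. From the libraries of 1 form alone, irradiation in WT and the combination in WT and in Mutant gave 0, edgeR gave 0 for the combination in Mutant, and pseudocount 1 gave 1 for that in Null.

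With a library left out the count ran from 2 to 3 for averaged irradiation, 0 to 1 for averaged APR-246, 0 to 1 for irradiation and 0 to 1 for the combination in WT, 0 to 0 for the combination in Mutant, and 0 to 1 for the response difference (1 without WT irradiation library 1). TEAD1 beyond the sum turned from 0.07 to -0.35 with the slope and -0.31 with block and slope, running from -0.43 to 0.28 with a library left out. AMOTL2 with the combination in WT ran from -0.063 to 1.17 (negative without WT solvent library 1) and F3 after irradiation in WT from -0.19 to 0.94 (negative without WT solvent library 2). In solvent alone CCDC80 gave -0.0045 for Mutant minus Null and -0.081 for Mutant minus WT.

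Counts over all genes moved more. With the main test, block, slope, and both, they were 2679, 6774, 7713 and 7199 for averaged irradiation, 651, 2634, 5673 and 6059 for APR-246 (419 without the filter, 1508 with DESeq2) and 2876, 6109, 9062 and 9253 for the combination. Between forms they were 2430, 6329, 6383 and 5406 (WT minus Null), 2486, 4800, 7334 and 7132 (Mutant minus Null) and 1995, 4753, 6565 and 6546 (Mutant minus WT), and in solvent alone 205, 515 and 130. Within forms the main test, edgeR, DESeq2 and the slope called 322, 100, 822 and 3732 genes after irradiation of WT, 16, 3, 598 and 2788 after that of Mutant and 140, 18, 733 and 4139 after that of Null. For APR-246 in Null they called 27, 4, 456 and 3114, and for the combination 460, 262, 999 and 4476 (WT), 72, 3, 633 and 3411 (Mutant) and 403, 104, 1124 and 5079 (Null). The replicate block called 1611, 2416 and 1305 genes after irradiation of WT, Mutant and Null, and 567 for APR-246 in Null. For the combination it called 1703 (WT), 1519 (Mutant) and 2650 (Null), and 1097 beyond the sum. Depth limits ANKRD1 alone, with fewer than 10 reads in 16 of 24 libraries.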

Other observations

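Other secreted matrix genes and targets of SRF and MRTF, an actin-sensing route that shares targets with YAP, were read from lists of the same kind. Of 4 further CCN genes, 2 were tested, and 1 of them, CCN3, was called. CCN3 rose after irradiation averaged over forms (0.95 ± 0.14, adjusted p = 0.000676, limma) and with the combination (1.29 ± 0.14, adjusted p = 9.96e-05). Of all genes, 6.84% and 7.63% were called higher in these 2 comparisons. Unlike CCN1 and CCN2, CCN3 was higher in WT and in Mutant than in Null (0.67 ± 0.12 and 0.71 ± 0.12, adjusted p = 0.00171 and 0.001, limma). There 11.8% and 12% of all genes were called in either direction.

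Of 17 SRF and MRTF targets, 16 were tested, and irradiation averaged over forms raised 3 and lowered 1. Of all genes, 6.84% were called higher and 6.13% lower. The median of the 16 was 0.05, beside -0.01 over all genes. THBS1, the matricellular protein thrombospondin, rose by 1.64 ± 0.19 after irradiation (adjusted p = 0.000198, limma) and 2.003 ± 0.19 with the combination (adjusted p = 3.33e-05). It was lower in WT and in Mutant than in Null, with log2 differences of -1.83 ± 0.16 and -1.70 ± 0.16 (adjusted p = 1.56e-06 and 2.84e-06, limma). FOS and CNN1, calponin, rose by 0.70 ± 0.15 and 0.68 ± 0.16 after irradiation (adjusted p = 0.00617 and 0.0124, limma). ACTA2, smooth muscle actin, was lower in Mutant than in WT (-1.74 ± 0.23, adjusted p = 0.000113, limma). The median of this list was -0.38 for WT minus Null and -0.34 for Mutant minus Null, beside 0.02 and 0.01 over all genes. In the first 1 gene was higher and 2 lower, where 11.8% of all genes were called (5.74% lower). In the second 0 were higher and 2 lower, where 12% of all genes were called (6.11% lower).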
